A study of Sus scrofa with 4 samples.

Results

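The superoxide dismutases, catalase, glutathione peroxidases and peroxiredoxins were followed by 10 genes, SOD1, SOD2, SOD3, CAT, GPX1, GPX3, GPX4, PRDX1, PRDX2 and PRDX6. Members were the non-control probes whose gene name on the array was one of these symbols. Of the 10 genes, 8 had a probe, and their 42 probes stood among 43603 probes with 34853 gene names. SOD3 and PRDX1 had no probe under their own symbols. The samples were PIP cells, a porcine intramuscular preadipocyte cell line from the longissimus thoracis muscle of a female Duroc pig, and porcine mature adipocytes (pMA), the same cells after 4 days in a medium that contained insulin, dexamethasone, octanoate and oleate. The pMA were left unstimulated or were stimulated for 12 h with serotonin, at a dose the labels give as 100 μM per ml and the methods in μM, or with 2.5 µg/mL TNF-α. Each of the 4 conditions was measured on 1 array of RNA that, by the methods, was pooled within the condition, and all arrays lay on 1 slide. There was thus no replicate of any condition, and every value below is a description of these 4 arrays with no test.

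Superoxide dismutases turn superoxide, the radical that leaks from electron transport and is made by NADPH oxidases, into hydrogen peroxide and oxygen. Catalase in peroxisomes, the glutathione peroxidases and the peroxiredoxins then remove the hydrogen peroxide, the glutathione peroxidases with electrons from glutathione and most peroxiredoxins with electrons from thioredoxin. In fat cells, where mitochondria and peroxisomes oxidize fatty acids, hydrogen peroxide is both a by-product and a signal that acts on insulin signaling, and fat tissue is a known source of the secreted glutathione peroxidase GPX3.

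A level is the log2 intensity of a probe after subtraction of the 75th percentile of its array, so that 0 marks the 75th percentile. A ratio is the difference between the levels of 1 probe on 2 arrays, and a log2 ratio of 1 is the 2-fold cutoff that the methods used. A gene was represented by its brightest probe, and the mean ± SD over its probes is given beside it. That SD shows how far probes for 1 transcript differ, not how far cultures differ. Between the spots of repeated probes the standard deviation within an array was 0.11 to 0.15 (log2), which gives a technical SD of 0.17 to 0.20 for a ratio. This SD rests on 25 to 32 repeated probes per array and holds no error that arises between arrays. Between 56.5% and 66.0% of the probes on an array were well above background, whereas all 42 probes of the members were well above background on all 4 arrays. Adipocyte genes differed between PIP cells and pMA in part. CD36 (log2 ratio 5.17, with 4 probes from 1.19 to 5.17), PLIN2 (3.14) and PPARG (1.07) were higher in pMA, and FABP4 by at least 8.48-fold. LPL (0.38) and LIPE (0.12) were under 2-fold. ADIPOQ, PLIN1 and CEBPA, which define mature fat cells, were not well above background in pMA, although ADIPOQ was in PIP cells (level -4.53). Fewer cells of a type and less RNA per cell cannot be told apart in these arrays.

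The sequences that the members' results rest on are 60-base probes, read from the deposited array files and written 5′ to 3′. Those shown lie in coding sequence, and the position is the first base in the transcript that the files name. The SOD1 probe shown was the brightest of its gene and had a lower level in pMA than in PIP cells. The first GPX1 probe gave the largest GPX1 ratios and holds TGA, in capitals, the codon that selenoproteins read as selenocysteine. The GPX3 probe lay farthest from the transcript's end among the probes of its gene. The PRDX6 probes share a run of 38 bases, in capitals, and so are not independent measurements.
SOD1 probe at base 470: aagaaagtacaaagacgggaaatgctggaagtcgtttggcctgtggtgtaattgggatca
GPX1 probe at base 139: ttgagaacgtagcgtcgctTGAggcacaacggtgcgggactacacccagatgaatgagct
GPX1 probe at base 463: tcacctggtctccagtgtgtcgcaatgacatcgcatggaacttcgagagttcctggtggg
GPX3 probe at base 503: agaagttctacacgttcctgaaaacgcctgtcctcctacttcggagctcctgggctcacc
PRDX6 probe at base 667: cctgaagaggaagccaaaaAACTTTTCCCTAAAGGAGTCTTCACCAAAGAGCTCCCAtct
PRDX6 probe at base 686: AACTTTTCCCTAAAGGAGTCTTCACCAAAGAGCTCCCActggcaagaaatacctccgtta

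The largest differences lay in the mitochondrial dismutase SOD2 and the secreted peroxidase GPX3. SOD2 was higher after both stimulations, most after TNF-α, whereas GPX3 was higher after serotonin and lower after TNF-α. In pMA against PIP cells, 2 of the 8 genes with a probe were at least 2-fold higher, CAT and GPX3, and none was 2-fold lower. Among all gene names with a ratio, 9.94% were at least 2-fold higher and 3.56% at least 2-fold lower in pMA. After serotonin 2 of the 8 were at least 2-fold higher, SOD2 and GPX3, against 2.08% of all gene names, and none was 2-fold lower, against 4.73%. After TNF-α 1 of the 8 was, SOD2, against 2.21% of all gene names, and none was 2-fold lower, against 1.34%. The 8 genes had a median log2 ratio of 0.34 for differentiation, 0.27 for serotonin and 0.17 for TNF-α, beside 0.12, 0.01 and 0.01 for all gene names. The unstimulated pMA array enters all of these comparisons, so its deviations move all of them.

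**Figure D1:**
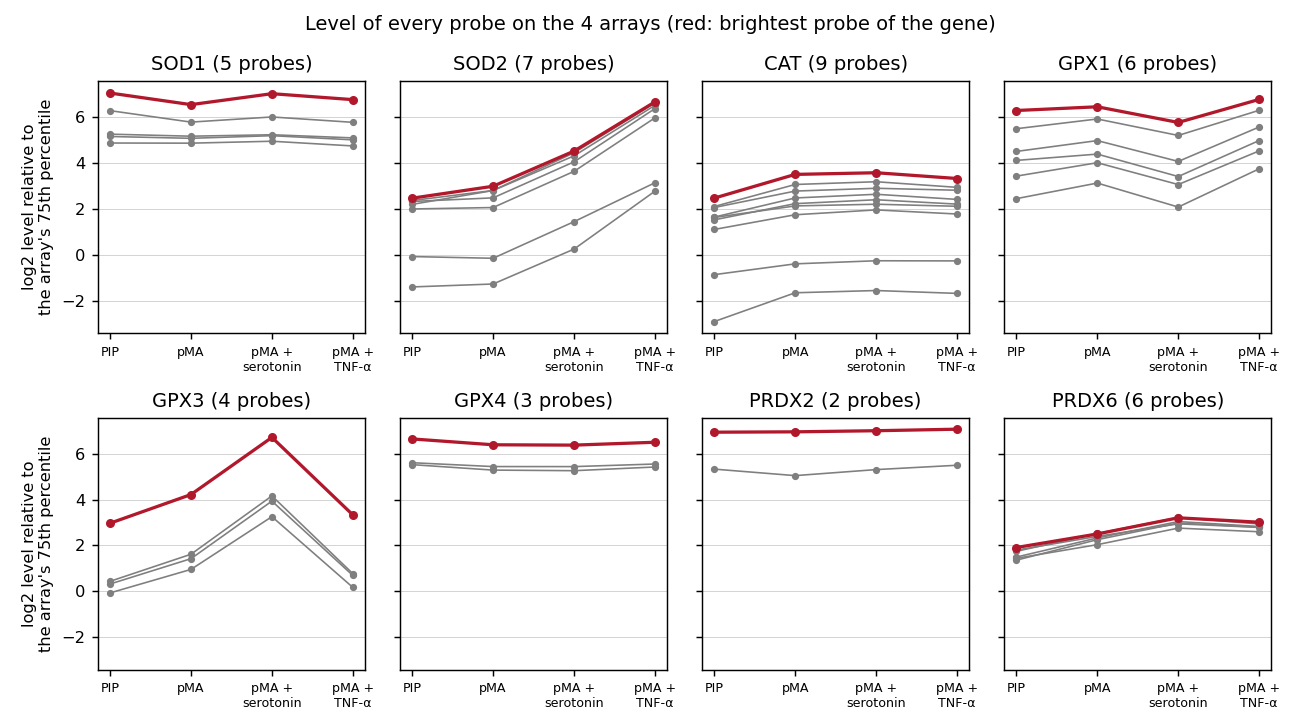
Log2 level of each of the 42 probes, relative to the 75th percentile of its array, on the arrays of PIP cells, pMA, pMA with serotonin and pMA with TNF-α, with 1 panel per gene and the brightest probe in red. Lines join the values of 1 probe and are no time course; all 7 SOD2 probes are highest with TNF-α and all 4 GPX3 probes are highest with serotonin.

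Among the dismutases, SOD1, the copper and zinc enzyme of the cytosol, differed by less than 2-fold in every comparison. Its brightest probe had a level of 7.04 in PIP cells, 6.54 in pMA, 7.01 after serotonin and 6.75 after TNF-α. The level was lowest in unstimulated pMA and nearly the same in PIP cells and after serotonin. The log2 ratio was -0.50 for differentiation, 0.48 for serotonin and 0.22 for TNF-α, each under 2-fold. The probes fell into 2 sets by transcript. The probe at base 470 and another in coding sequence both had a ratio of -0.50 for differentiation. The other 3 probes, at bases 771 to 818 of another transcript that the files name, had ratios between -0.09 and -0.01. Over all 5 probes the mean was -0.24 ± 0.25 for differentiation, 0.19 ± 0.17 for serotonin and -0.01 ± 0.13 for TNF-α, so the sign for TNF-α depended on the probe.

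SOD2, the manganese enzyme of mitochondria and a gene known to respond to TNF-α in many cells, had the largest log2 ratio of the members. Its brightest probe had a level of 2.46 in PIP cells, 2.98 in pMA, 4.51 after serotonin and 6.66 after TNF-α. The 4 conditions thus stood apart in that order, with the step from PIP cells to pMA the smallest. SOD2 was 2.89-fold higher after serotonin (log2 ratio 1.53) and 12.8-fold higher after TNF-α (3.67) than in unstimulated pMA. Compared directly, the TNF-α array was 4.42-fold above the serotonin array (2.14). All 7 probes exceeded 2-fold in both stimulations. They ranged from 1.51 to 1.64 after serotonin, with a mean of 1.56 ± 0.05, and from 3.29 to 4.04 after TNF-α, with a mean of 3.76 ± 0.24. The ratio for differentiation was less uniform, from -0.07 to 0.60 with a mean of 0.26 ± 0.26, and no SOD2 probe reached 2-fold there. The array carried the same 60 bases for SOD2 at 2 places as separate probes. Their ratios differed by 0.08 for differentiation, 0.11 for serotonin and 0.13 for TNF-α, less than the technical SD of a ratio.

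SOD3, the extracellular dismutase, was found only through the transcript accession of a probe that bears another gene name. In PIP cells and pMA this probe was too dim to be marked as well above background. It was marked as well above background after serotonin (level -4.81) and after TNF-α (-4.91), yet neither level exceeded the faintest signal well above background on the pMA array (-4.64). No ratio for SOD3 was therefore given.

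Catalase, the peroxisomal enzyme that splits hydrogen peroxide without a reducing partner, was higher in pMA than in PIP cells and differed little between the pMA arrays. The brightest CAT probe had a level of 2.46 in PIP cells, 3.50 in pMA, 3.57 after serotonin and 3.32 after TNF-α. PIP cells stood below the pMA arrays, which lay close to each other. CAT was 2.05-fold higher in pMA (log2 ratio 1.03). All 9 probes were higher in pMA, from 0.47 to 1.25, but only 2 reached 2-fold and the mean was 0.79 ± 0.26. After serotonin the 9 probes lay between 0.07 and 0.21, with a mean of 0.13 ± 0.05. After TNF-α they lay between -0.18 and 0.13, with a mean of -0.03 ± 0.09. These ratios lay within the technical SD of 0.17 to 0.20 but for 1 probe after serotonin.

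GPX1, the selenoprotein peroxidase of cytosol and mitochondria, had opposite signs in the stimulations. Its brightest probe had a level of 6.28 in PIP cells, 6.44 in pMA, 5.76 after serotonin and 6.76 after TNF-α. Serotonin gave the lowest level and TNF-α the highest, and this order was found for all 6 probes. The log2 ratio was -0.68 for serotonin and 0.32 for TNF-α, and the probes ranged from -1.04 to -0.68 and from 0.32 to 0.62. Only the probe at base 139 was 2-fold lower after serotonin. The mean over probes was -0.88 ± 0.15 for serotonin and 0.50 ± 0.13 for TNF-α. In the direct comparison all 6 probes were at least 2-fold higher with TNF-α than with serotonin, at a mean of 1.38 ± 0.27, although the brightest lay at the cutoff (1.00). Its ratio was under 2-fold in 4 of 8 alternatives, at 0.88 after median scaling, 0.86 after quantile normalization and 0.97 after spike-in scaling and after normexp, a model-based background correction. For differentiation the 6 probes were higher in pMA by 0.16 to 0.68, with a mean of 0.43 ± 0.19.

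GPX3, the glutathione peroxidase secreted into plasma, differed at least 2-fold in pMA against PIP cells and after serotonin. Its brightest probe had a level of 2.97 in PIP cells, 4.22 in pMA, 6.71 after serotonin and 3.33 after TNF-α. Serotonin stood far above the other arrays, and TNF-α lay between PIP cells and unstimulated pMA. GPX3 was 2.38-fold higher in pMA than in PIP cells (log2 ratio 1.25) and a further 5.61-fold higher after serotonin (2.49). After TNF-α it was 1.85-fold lower than in unstimulated pMA (-0.89), short of the cutoff. All 4 probes behaved alike. They ranged from 1.02 to 1.25 for differentiation, from 2.30 to 2.54 for serotonin and from -0.89 to -0.73 for TNF-α. The means were 1.14 ± 0.10, 2.46 ± 0.11 and -0.81 ± 0.07. Between the stimulated arrays GPX3 was 10.4-fold lower with TNF-α than with serotonin (-3.38), and the 4 probes lay between -3.39 and -3.08. The coding probe shown above had a level of 3.25 after serotonin against 0.96 in unstimulated pMA.

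GPX4, which reduces lipid hydroperoxides in membranes, was nearly level. Its brightest probe had a level of 6.64 in PIP cells, 6.39 in pMA, 6.37 after serotonin and 6.49 after TNF-α. PIP cells had the highest level by all 3 probes, by less than 2-fold. The mean over 3 probes was -0.22 ± 0.05 for differentiation, -0.01 ± 0.01 for serotonin and 0.12 ± 0.01 for TNF-α.

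Of the peroxiredoxins, PRDX2 of the cytosol was nearly level by its brighter probe only. The brighter of its 2 probes had a level of 6.93 in PIP cells, 6.95 in pMA, 6.997 after serotonin and 7.06 after TNF-α. The other probe had a log2 ratio of -0.28 for differentiation, 0.26 for serotonin and 0.45 for TNF-α, so the probes disagreed in sign for differentiation. PRDX6, which differs from the other peroxiredoxins in using glutathione and in having a phospholipase activity, was higher in each comparison by less than 2-fold. Its level was 1.91 in PIP cells, 2.50 in pMA, 3.20 after serotonin and 3.01 after TNF-α. PIP cells were lowest and both stimulated arrays stood above unstimulated pMA. The ratio was 0.59 for differentiation, 0.70 for serotonin and 0.51 for TNF-α. All 6 probes were positive in all 3 comparisons, with means of 0.72 ± 0.14, 0.68 ± 0.07 and 0.49 ± 0.07. No probe for PRDX1, a cytosolic peroxiredoxin, was found by gene name or accession.

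**Figure D2:**
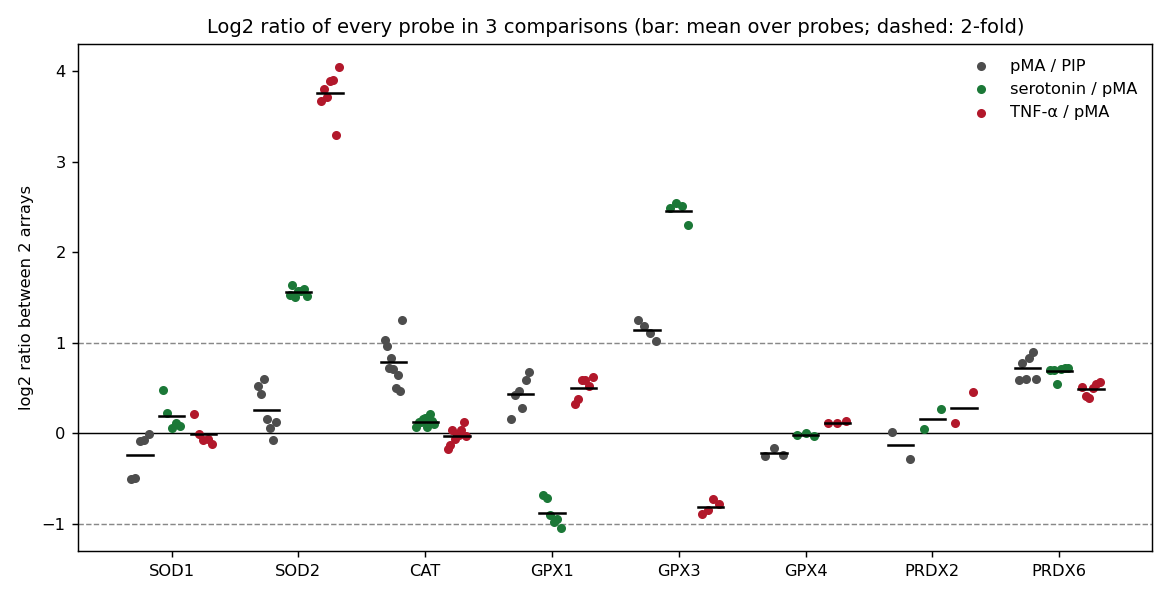
Log2 ratio of each probe in pMA against PIP cells, serotonin against pMA and TNF-α against pMA, with a bar at the mean over the probes of a gene and dashed lines at 2-fold. All 7 SOD2 probes lie above 2-fold in both stimulations, and GPX3 probes lie between 2.30 and 2.54 after serotonin and between -0.89 and -0.73 after TNF-α.

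By probe, 6 of the 42 were at least 2-fold higher in pMA than in PIP cells, against 9.12% of all probes with a ratio, and none was 2-fold lower, against 4.01%. After serotonin 11 probes were at least 2-fold higher, 7 of SOD2 and 4 of GPX3, against 2.12%, and 1 was at least 2-fold lower, against 4.8%. After TNF-α 7 probes were at least 2-fold higher, all of SOD2, against 2.27%, and none was 2-fold lower, against 1.25%. With TNF-α against serotonin 13 probes were at least 2-fold higher, against 5.49%, and the 4 of GPX3 at least 2-fold lower, against 1.82%. Probes of 1 gene are not independent, so these counts largely repeat the genes. Of 18588 gene names with a ratio in both stimulations, 75 (0.403%) were at least 2-fold higher in both, among them SOD2. The combination seen for GPX3, at least 2-fold higher after serotonin with a negative ratio after TNF-α, was found for 88 gene names (0.473%). Between the stimulated arrays, 5.07% of gene names were at least 2-fold higher with TNF-α, among them SOD2 and, at the cutoff, GPX1, and 1.83% were at least 2-fold lower, among them GPX3.

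Levels between arrays depend on the scaling, most for differentiation. After scaling to the 75th percentile 1852 gene names were at least 2-fold higher and 663 lower in pMA, whereas scaling to the array median gave 854 higher and 1647 lower and moved the median ratio of all gene names from 0.12 to -0.22. Bright spike-in controls lay 0.38 lower on the pMA array than on the PIP array. Under the array median CAT had a log2 ratio of 0.68 and GPX3 of 0.90 for differentiation, both under 2-fold. Relative to the median of all gene names, CAT was higher by 0.61 to 1.09 and GPX3 by 0.83 to 1.33 over the settings tried, and SOD1 was lower by 0.37 to 0.92. On the same basis GPX4 was lower by 0.21 to 0.67, while the signs of GPX1 (-0.26 to 0.30) and PRDX2 (-0.40 to 0.08) were not fixed. Without that correction GPX4 ranged from -0.60 to 0.13. After stimulation the scaling mattered less. The split of all gene names was 398 higher and 904 lower for serotonin, or 565 and 707 when scaled to spike-in controls, and 438 and 266 for TNF-α, or 367 and 364 when scaled to the median. Between the stimulated arrays it was 1109 higher and 400 lower, or 857 and 580 when scaled to the median. SOD2 stayed between 1.52 and 1.64 for serotonin and between 3.59 and 3.76 for TNF-α, and GPX3 stayed between 2.46 and 2.65 and between -0.97 and -0.81.

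**Figure D3:**
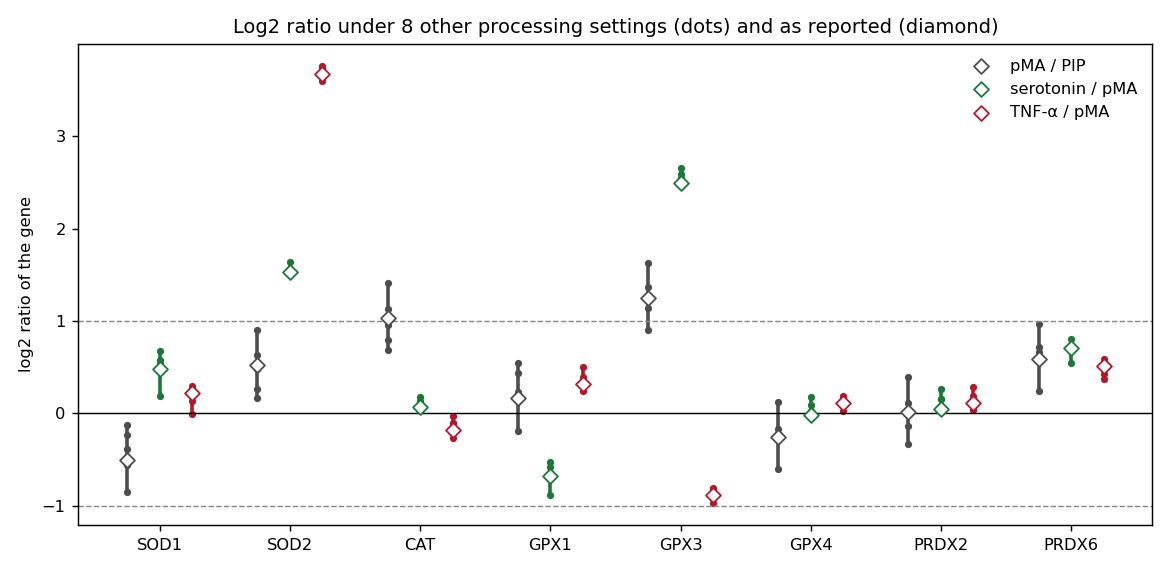
Log2 ratio of the 8 genes in the 3 comparisons as reported (diamond) and under 8 other processing settings (dots, joined from lowest to highest), with dashed lines at 2-fold. The CAT and GPX3 ratios for differentiation cross the 2-fold line, whereas SOD2 after both stimulations and GPX3 after serotonin stay above it.

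Thioredoxin and glutathione carry the electrons that the peroxidases use. A list of 19 genes of thioredoxin, glutaredoxin and glutathione recycling had 11 genes with a ratio. For differentiation, 3 were positive, 8 negative and 1 at least 2-fold higher, against 9.94% of all gene names, and the median was -0.36 against 0.12 for all gene names. The gene past 2-fold was TXNIP, which binds and inhibits thioredoxin. TXNIP had a level of 3.06 in PIP cells, 6.03 in pMA, 5.24 after serotonin and 6.12 after TNF-α. Its 9 probes lay between 2.72 and 3.16 for differentiation. After serotonin 6 were positive and 5 negative, with a median of 0.10, and 2 of the 11 were at least 2-fold higher, against 2.08% of all gene names. TXNRD1, the cytosolic thioredoxin reductase and itself a selenoprotein, had levels of 5.38, 5.07, 6.59 and 4.94 in PIP cells, pMA, serotonin and TNF-α. Its ratio after serotonin was 1.53, and the 6 probes ranged from 1.44 to 2.34. GSR, which regenerates reduced glutathione, had a ratio of 1.09 after serotonin and 1.10 with its other probe. After TNF-α none of the 11 reached 2-fold by its brightest probe. TXNRD1 had a ratio of -0.12, with probes from -0.28 to 0.31, so its sign depended on the probe. GSR had a ratio of -0.30, and -0.10 with its other probe.

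Among selenoproteins and the factors that make them, 16 of 21 listed genes had a ratio. GPX1, GPX3 and GPX4 need this machinery to insert selenocysteine. For differentiation 2 genes were at least 2-fold higher and 1 lower, against 9.94% and 3.56% of all gene names, with a median of 0.02. After serotonin 1 was higher and 2 lower, against 2.08% and 4.73%, with a median of 0.12. SELENOP, the secreted selenium carrier, had a level of -1.32 in PIP cells, 0.27 in pMA, -0.91 after serotonin and -0.38 after TNF-α. Its ratio was thus 1.59 for differentiation and -1.18 for serotonin, the opposite sign to GPX3 after serotonin, and its 10 probes lay between 0.74 and 1.59 and between -1.44 and -0.79. SELENOM, a selenoprotein of the endoplasmic reticulum, had ratios of -1.25 and -1.05, which were -0.87 and -0.95 when scaled to spike-in controls. DIO2, the deiodinase that activates thyroid hormone, had a level of -2.52 in pMA and 0.39 after serotonin, a ratio of 2.91 that was 2.04 after normexp. DIO3, the deiodinase that inactivates thyroid hormone, lay near background in PIP cells and was higher in pMA by at least 2.23-fold, a bound that dropped under 2-fold after median scaling, quantile normalization or normexp. After TNF-α none of the 16 reached 2-fold by its brightest probe, and the median was -0.09. The SELENOP probes ranged from -1.03 to -0.29 there.

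**Figure D4:**
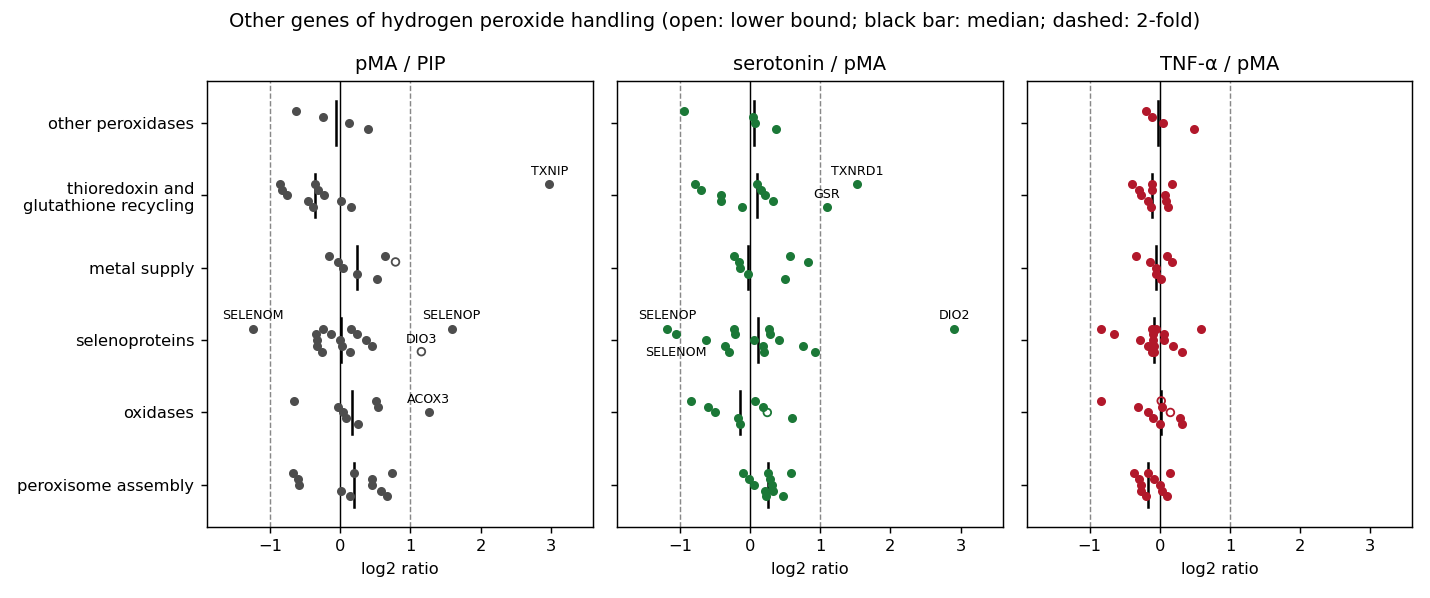
Log2 ratios of genes in 6 lists related to hydrogen peroxide, in pMA against PIP cells, serotonin against pMA and TNF-α against pMA, with the median of each list as a black bar, lower bounds as open circles and genes past 2-fold named. TXNIP lies at 2.98 for differentiation and DIO2 at 2.91 for serotonin, while no gene of the 6 lists passes 2-fold after TNF-α.

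The other lists held few genes past 2-fold, beside the shares of all gene names given above. Of 11 other peroxidase genes 4 had a ratio, and none reached 2-fold in any comparison. GPX2, the peroxidase of the gut lining, had the same signs as GPX1, with ratios of -0.94 for serotonin and 0.49 for TNF-α from 1 probe. The mitochondrial PRDX3 and the secretory-pathway PRDX4 had ratios of -0.25 and -0.63 for differentiation. Of 27 genes of oxidases, their subunits and partners, 8 had a ratio for differentiation. Of these, 1 was at least 2-fold higher in pMA, against 9.94% of all gene names. It was ACOX3, a peroxisomal oxidase that makes hydrogen peroxide from branched fatty acids (1.26, or 0.91 after median scaling and 0.80 after normexp). That list also held VNN1, a pantetheinase, which is no oxidase. NCF1, DUOX1 and DUOX2, parts of NADPH oxidases, were not well above background in PIP cells, in unstimulated pMA or after serotonin. After TNF-α, NCF1 (level -4.73) and the brightest DUOX2 probe (-4.45) were marked as well above background, and DUOX1 was not. CYBA, another part, was well above background on all 4 arrays. Its ratios were 0.51 for differentiation, 0.07 for serotonin and 0.32 for TNF-α. No probe was found for NOX1, NOX3, NOX4, NOX5 or CYBB. None of 11 peroxisome assembly genes with a ratio reached 2-fold in any comparison, with medians of 0.19, 0.26 and -0.18, beside the CAT ratio of 1.03 for differentiation. Of the genes that supply copper, manganese or iron, 7 had a ratio and none reached 2-fold by its brightest probe. For differentiation, however, the ATP7A probes ranged from -0.16 to 1.78 and the SLC39A14 probes from 0.23 to 1.46. After serotonin 3 of the 7 genes were positive and 4 negative, with a median of -0.03. The highest ratios were of copper genes, although the copper genes SLC31A2 (-0.16) and ATP7B (-0.03) were negative. CCS, the chaperone that loads copper into SOD1, had a ratio of 0.57 after serotonin, and SLC31A1, the copper importer, of 0.83 from 1 faint probe, at a level of -3.54 in pMA, that was found by its accession.

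Marker genes differed between the same arrays as SOD2 and GPX3. All 4 listed TNF response genes were at least 2-fold higher after TNF-α, against 2.21% of all gene names, with a median of 3.15. After serotonin 3 of the 4 were, against 2.08%, with a median of 2.11. TNFAIP3, an inhibitor of NF-κB signaling, had ratios of 2.26 for serotonin and 5.29 for TNF-α, and CCL2, a chemokine, of -0.19 and 1.49. Of the 9 adipocyte markers 6 had a ratio after serotonin, 4 positive and 2 negative, with a median of 0.79. Among these, 2 were at least 2-fold higher, against 2.08%, and 1 lower, against 4.73%. LPL was highest (2.41) and FABP4 lowest (-2.77). After TNF-α all 7 with a ratio were positive, with a median of 0.48. FABP4 (1.45) and LPL (1.28) were the 2 at least 2-fold higher, against 2.21%, and none was 2-fold lower, against 1.34%. All 3 measured fibroblast markers were lower after both stimulations, with a median of -0.88 for serotonin and -0.37 for TNF-α. COL1A1 was lower by the most in both (-1.41 and -0.78). The myogenic genes MYOD1 and MYF5 were not well above background on any array, while MYOG was well above background on all 4 arrays, with a ratio of -0.01 after serotonin. DES had a ratio of -1.02 after serotonin, with 4 probes from -2.59 to -0.55. Macrophage CD163 was not well above background on any array, and CD14 had ratios of -0.02 and 0.66. Endothelial PECAM1 was lower after serotonin (-1.46, with probes from -1.46 to -0.44), while CDH5 was not well above background on any array. The part of these shifts in the SOD2 and GPX3 ratios was not tested.

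Genes with the pattern most like SOD2 and GPX3 were found by the Euclidean distance of their 3 log2 ratios, among 4632 gene symbols well above background on all 4 arrays. The ratios share the pMA array, and the distance is a description. Nearest to SOD2 were CCL20 (distance 0.67), NFKBIA (0.79), PTGIR (0.81), C1H15orf48 (1.15) and NDUFAB1 (1.20). CCL20, a chemokine, had ratios of -0.09 for differentiation, 1.79 for serotonin and 3.59 for TNF-α. NFKBIA, an inhibitor of NF-κB, had 0.35, 1.97 and 3.04. Nearest to GPX3 were GLI1 (0.97), DIO2 (0.98), NT5E (1.07), TMEM254 (1.08) and AKR1E2 (1.31). GLI1, a transcription factor of hedgehog signaling, had ratios of 1.18, 1.77 and -0.25.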

How the data were processed

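The authors deposited 4 Agilent Feature Extraction 10.7.3.1 tables of 1-color (Cy3) intensity per spot, already background-corrected, and a value table whose entries were each the ratio of that intensity to a constant of the array. Deposited 0 and 1 marks gave outlier, saturated and well-above-background spots. The methods describe GeneSpring normalization and, in part, other arrays. Genome build and transcript version were not given in the sources used here, so no coordinates are printed.

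Control and outlier spots (1 to 12 per array) were left out, no member spot was saturated, and repeated spots were averaged. Levels were log2 intensity minus the array's 75th percentile (479 to 566). Where a probe was dim on 1 array, its value there was raised to the array's faintest signal well above background, giving a lower bound. The brightest probe stood for a gene. The number of arrays limits the precision. Scripts used Python 3.11.15 and, for normexp (offset 50), limma 3.58.1 in R 4.3.3, and were tested on simulated data. From each list, genes past 2-fold were named, at most 4 per comparison, with the 5 nearest genes of SOD2 and GPX3. Other list genes were chosen after their values were seen. Some genes of the lists and a probe sequence are not reported here. Older selenoprotein symbols were matched to current ones. Members, lists and alternatives were chosen with earlier results of these data known. Alternatives were median, quantile and spike-in scaling, normexp, no dim filter, probes bright on all arrays, means over probes, the authors' value table and a 1.5-fold cutoff.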

Additional observations from a re-analysis of the deposited data

How the results depend on the processing

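The number of members at least 2-fold different in pMA against PIP cells was 2. It was 0 after scaling to the array median, 1 after normexp and 1 with the mean over probes. At a 1.5-fold cutoff the number was 4 instead of 2 for serotonin and 2 instead of 1 for TNF-α. At that cutoff 1592 of 19095 gene names were higher and 2413 lower after serotonin. After TNF-α 1362 of 19782 were higher and 1040 lower. The members' median log2 ratio for differentiation was 0.34, and it was -0.0085 after scaling to the median and 0.72 after scaling to spike-in controls. For serotonin it was 0.27, and 0.47 after quantile normalization. Of 335 single-gene ratios recomputed over the alternatives, 290 moved by less than the technical SD, 45 moved by more, and none that passed 2-fold changed sign. For differentiation, scaling to the median put 4 recycling genes and 1 peroxisome assembly gene past 2-fold instead of 1 and 0, and scaling to spike-in controls 2 peroxisome assembly and 2 metal supply genes instead of 0. The 5 genes nearest to SOD2 shared 3 with the reported ones after normexp, and those nearest to GPX3 shared 4. No paired analysis was possible because each condition had 1 array. With 1 array of pooled RNA per condition, the spread between cultures is unknown, and the SOD3 probe lay too near background for a ratio.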
